A study of Mus musculus with 8 samples.

Results

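The 10 circadian clock genes Arntl, Clock, Npas2, Per1, Per2, Per3, Nr1d1, Nr1d2, Bhlhe41 and Dbp were examined in the hippocampus of mice fed rosmarinic acid (RA), a plant polyphenol. They were taken as every probe set whose platform symbol is exactly 1 of these genes, which gave 25 probe sets of 45037, for 10 of the 18193 genes that have a probe set of their own. No probe set named a clock gene of this list together with another gene. Only 2 of the 25 probe sets varied measurably between arrays, 1 for Npas2 and 1 for Dbp, and neither passed the test in either direction. For the other 8 genes the arrays gave no measure of a difference between the groups.

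The RA group was fed the AIN-93G diet with 0.5% RA (4 arrays) and the control group the same diet without RA (4 arrays), each for 8 months up to the age of 10 months under equal light and dark periods of 12 h. All mice were male 3xTg-AD mice, a model of Alzheimer's disease that carries the human transgenes of amyloid precursor protein (Swe), tau (P301L) and presenilin 1 (M146V), so that the control group carries these alleles too. The methods speak both of 4 mice per group, chosen for average weight, and of pooled total RNA, so the spread between arrays may be partly technical. The time of day at dissection, on which the level of a clock transcript depends, was not found in the sources used here.

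The circadian clock is a transcription loop that runs in most cells of the body, the hippocampus included. ARNTL pairs with CLOCK or its relative NPAS2 and switches on genes that carry an E-box in their promoters, among them the Per genes, whose proteins return to the nucleus and silence their own activators. NR1D1 and NR1D2 repress Arntl, BHLHE41 competes for E-boxes, and DBP carries the rhythm to output genes through D-boxes.

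Most values in these arrays are nearly constant, because the summary that the authors used, FARMS (factor analysis for robust microarray summarization), draws a probe set without shared signal among its probes to a constant. A probe set with a standard deviation (SD) of up to 0.01 over the 8 arrays was therefore taken as unmeasured, which left 3758 of 45037 probe sets (8.34%) measured. The RA mean was the higher one in 73.1% of those, and their median log2 difference (RA minus control) was 0.0694. Array medians lay at 5.833 to 5.835 in the RA group and at 5.829 to 5.831 in the control group. Choroid plexus tissue differed between arrays. Ttr (1454608_x_at), its most abundant product, was at 12.046, 7.673, 13.124 and 13.263 on log2 scale in RA arrays 1 to 4, against 8.535, 8.569, 13.394 and 8.899 in control arrays 1 to 4, so that RA arrays 1, 3 and 4 and control array 3 were high. The rank product, the test of the study's methods, called all 10 of 10 choroid plexus markers higher in the RA group, beside 0.915% of all probe sets, although the groups overlapped for each of them (limma adjusted p of 0.766 to 0.891). All 10 were measured, beside 8.34% of all probe sets. Among measured probe sets alone the rank product called 1 of the 10, and without RA array 1 it called 2. The mean of the list ranged over 5.67 to 8.06 in the RA group and 5.72 to 8.31 in the control group.

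Of the 25 clock probe sets, 2 were measured (8%), a share close to the 8.34% of all probe sets. Counted by gene, 2 of the 10 clock genes (20%) had a measured probe set, beside 2496 of all 18193 genes (13.7%). How often a probe set was measured rose with its level over the whole array, with 272 of 25260 (1.08%) measured at a mean log2 value under 6, 864 of 9434 (9.16%) at 6 to 7 and 2622 of 10343 (25.4%) at 7 or more. The clock probe sets numbered 12, 6 and 7 in these ranges, with 0, 1 and 1 measured.

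**Figure D1:**
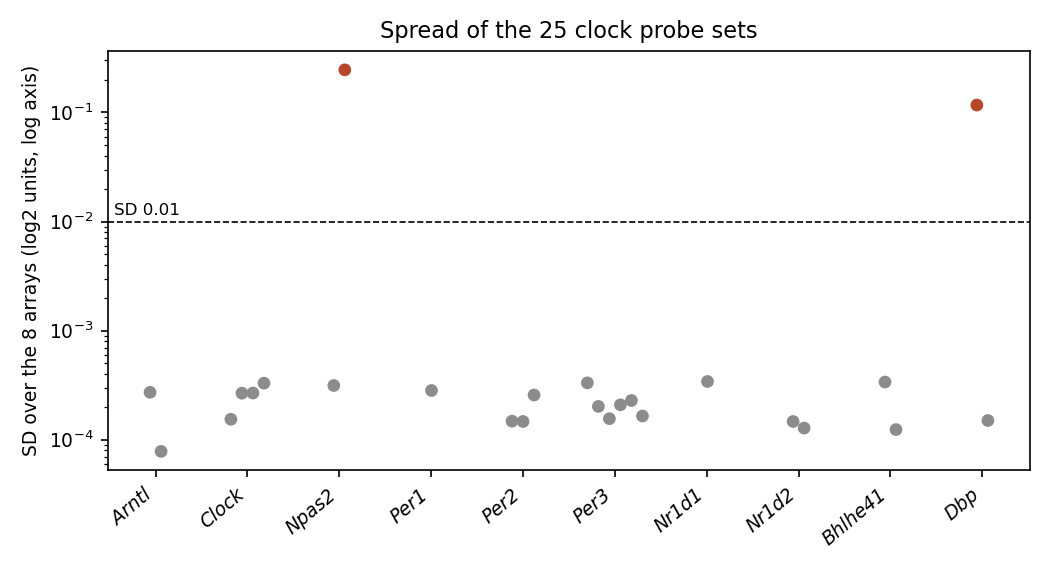
SD over the 8 arrays of each of the 25 clock probe sets in log2 units on a log axis, 1 point per probe set, grouped by gene, with a dashed line at 0.01. The measured probe sets of Npas2 (0.246) and Dbp (0.117) stand above the line, and the other 23 lie at or below 0.000347.

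The promoters of these genes are shown next, since the measured genes encode an activator (NPAS2) and an output factor (DBP) that act through short promoter motifs. The 250 bases before each start in the RefSeq promoter table (GRCm38.p6) were searched on both strands for the E-box CACGTG, the E-box variant CACGTT, the D-box TTATGTAA and the ROR half-site AGGTCA, none of which overlaps another in the sequences below. Over 32851 starts, these were found in 6.02%, 3.85%, 0.819% and 14% of windows. The table held 13 starts for 9 of the genes, with no entry for Per2. Capitals mark a motif or its reverse complement, and each sequence runs 5′ to 3′ on the strand of its gene.
Per1, chr11:69098763-69098837, plus strand: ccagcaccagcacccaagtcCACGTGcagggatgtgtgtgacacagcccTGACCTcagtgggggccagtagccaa
Per3, chr4:151044796-151044890, minus strand: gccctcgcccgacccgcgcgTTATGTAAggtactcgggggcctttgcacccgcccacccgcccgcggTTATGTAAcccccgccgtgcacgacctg
Nr1d1, chr11:98775380-98775425, minus strand: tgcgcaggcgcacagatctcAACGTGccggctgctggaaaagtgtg
Nr1d2, chr14:18239158-18239203, minus strand: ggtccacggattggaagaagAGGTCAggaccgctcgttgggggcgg
Bhlhe41, chr6:145865548-145865593, minus strand: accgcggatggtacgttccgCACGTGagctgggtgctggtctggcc
Npas2, chr1:39194172-39194271, plus strand: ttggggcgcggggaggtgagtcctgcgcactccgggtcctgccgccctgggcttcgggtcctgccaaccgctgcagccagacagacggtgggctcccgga
Dbp, chr7:45705147-45705246, plus strand: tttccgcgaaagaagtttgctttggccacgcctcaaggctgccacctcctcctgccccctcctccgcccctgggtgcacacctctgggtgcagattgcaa

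The E-box lay 166 bases before 1 of the 2 starts of Per1 and 153 bases before the start of Bhlhe41, and the variant CACGTT lay on the other strand 28 bases before that of Nr1d1. Per3 held the D-box at 205 and at 158 bases before its start. The ROR half-site was found in Per1 (137 bases), Nr1d2 (77 bases) and 1 of the 3 starts of Clock (119 bases). The windows of Npas2, Dbp and Arntl held none of the 4 motifs, and for Npas2 and Dbp the last 100 bases before the start are printed. These matches describe the letters in the windows and were not tied to any value on the arrays.

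Among the activators, Arntl and Clock were unmeasured. Arntl, which encodes a partner of both CLOCK and NPAS2, had 2 probe sets with mean log2 levels of 5.65 and 6.89 and SDs of 7.82e-05 and 0.000272. Clock, which encodes a DNA-binding partner of ARNTL, had 4 probe sets with means of 5.46 to 7.44 and SDs up to 0.00033. Such flat values say nothing about whether the transcripts were equal in the groups.

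Npas2, which encodes a CLOCK-like partner of ARNTL found in the forebrain, was the activator with a measured probe set. On the log2 scale, Npas2 (1421037_at) was at 6.885, 7.072, 7.161 and 6.801 in RA arrays 1 to 4, against 7.110, 6.666, 6.435 and 6.951 in control arrays 1 to 4. RA array 3 was the highest and control array 3 the lowest, but control array 1 lay above 3 of the 4 RA arrays, and the groups overlapped. The mean was 6.98 ± 0.166 in the RA group and 6.79 ± 0.300 in the control group (SD, n = 4 each), a log2 difference of 0.19 with a standard error (SE) of 0.164 and a 95% interval of -0.20 to 0.58, or 1.14-fold. This difference did not pass the test (limma adjusted p = 0.724, exact permutation test 2-sided p = 0.343, rank product proportion of false positives 0.106). The second probe set of Npas2 (1421036_at) was unmeasured at a mean of 5.93.

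The difference of Npas2 rested in part on single arrays. It was 0.07 without control array 3 and 0.30 without control array 1, and only without control array 1 did the rank product call it higher (proportion of false positives 0.0244), where 966 probe sets in all were called higher. Between RA arrays 1, 3 and 4 and control array 3, those with high Ttr, it was 0.51, and between RA array 2 and control arrays 1, 2 and 4 it was 0.16, both with a single array on 1 side.

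Some lists of cell type markers moved with Npas2 across the arrays and others did not. The r of their list means with Npas2 was 0.89 for the striatum, 0.86 for microglia, 0.22 for the thalamus and 0.12 for astrocytes. It was -0.75 for granule cells, -0.69 for oligodendrocytes and -0.68 for pyramidal cells. The other lists lay between these values. Drd1 (1456051_at), the dopamine receptor of striatal and cortical neurons and the only measured gene of the 4 striatal markers found, was at 6.518, 6.830, 6.591 and 6.595 in RA arrays 1 to 4, against 6.928, 6.338, 6.035 and 6.746 in control arrays 1 to 4, and was chosen after its values were seen. It was lowest in control arrays 3 and 2, as Npas2 was. The mean of the striatal list ranged over 6.32 to 6.40 in the RA group and 6.20 to 6.42 in the control group, and that of the 5 microglial markers, 2 of them measured, over 7.46 to 7.59 in the RA group and 7.41 to 7.56 in the control group. The list means of granule cell, pyramidal cell and oligodendrocyte markers were all lowest in RA array 2 and control array 1, where Npas2 was at 7.072 and 7.110. They were at 7.15 in RA array 2 and 7.23 in control array 1 for granule cells, at 7.67 and 7.89 for pyramidal cells and at 8.32 and 8.54 for oligodendrocytes. In RA array 3, where Npas2 was highest (7.161), the means were not low, at 7.59 for granule cells, 8.29 for pyramidal cells and 9.37 for oligodendrocytes. Not all members of these lists were low in control array 1. The granule cell markers C1ql2 (6.962) and Calb1 (10.467) and the pyramidal cell marker Wfs1 (9.214) were at their highest there. In such bulk tissue, fewer cells of a type and less RNA per cell cannot be told apart, and the part of these markers in the values of Npas2 was not tested.

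Among the repressors, no probe set was measured. Per1, a repressor that is also induced by neuronal activity, had 1 probe set at a mean of 7.21 with an SD of 0.000283. Per2, a core repressor of the loop, had 3 probe sets at 5.61 to 6.50 and SDs up to 0.000257, and Per3, the third member of the family, had 6 at 5.49 to 6.45 and SDs up to 0.000332. The lowest adjusted p of all 25 clock probe sets belonged to a flat probe set of Per3 (1421086_at, limma adjusted p = 0.495), with a log2 difference of 0.00043.

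The nuclear receptors and BHLHE41 gave the same picture. Nr1d1 (REV-ERB alpha), which represses Arntl, had 1 probe set at 6.15 with an SD of 0.000347, the highest among the unmeasured clock probe sets. Nr1d2 (REV-ERB beta), its close relative, had 2 at 6.55 and 8.98 with SDs up to 0.000147. Bhlhe41 (DEC2), a repressor at E-boxes, had 2 at 5.36 and 5.95 with SDs up to 0.000338. Over all 23 unmeasured clock probe sets, the values of 1 probe set spanned at most 0.00105 over the 8 arrays.

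Dbp, the output gene and an activator at D-boxes, had a measured probe set that did not pass the tests used. On the log2 scale, Dbp (1418174_at) was at 7.627, 7.634, 7.593 and 7.864 in RA arrays 1 to 4, against 7.797, 7.608, 7.578 and 7.825 in control arrays 1 to 4. RA array 4 and control arrays 1 and 4 were high and the other 5 arrays were low, so that both groups held high and low arrays and overlapped. The mean was 7.68 ± 0.124 in the RA group and 7.70 ± 0.127 in the control group (SD, n = 4 each), a log2 difference of -0.02 with an SE of 0.085 and a 95% interval of -0.23 to 0.18 (limma adjusted p = 0.947, exact permutation test 2-sided p = 0.971). The rank product gave proportions of false positives of 0.714 for higher and 0.826 for lower. The sign of this difference depended on single arrays, at -0.08 without RA array 4 and 0.02 without control array 4. The difference was 0.12 between the arrays with high Ttr and -0.11 between the others, both with a single array on 1 side. The other probe set of Dbp (1438211_s_at), with a mean of 8.43, was unmeasured (SD 0.00015).

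**Figure D2:**
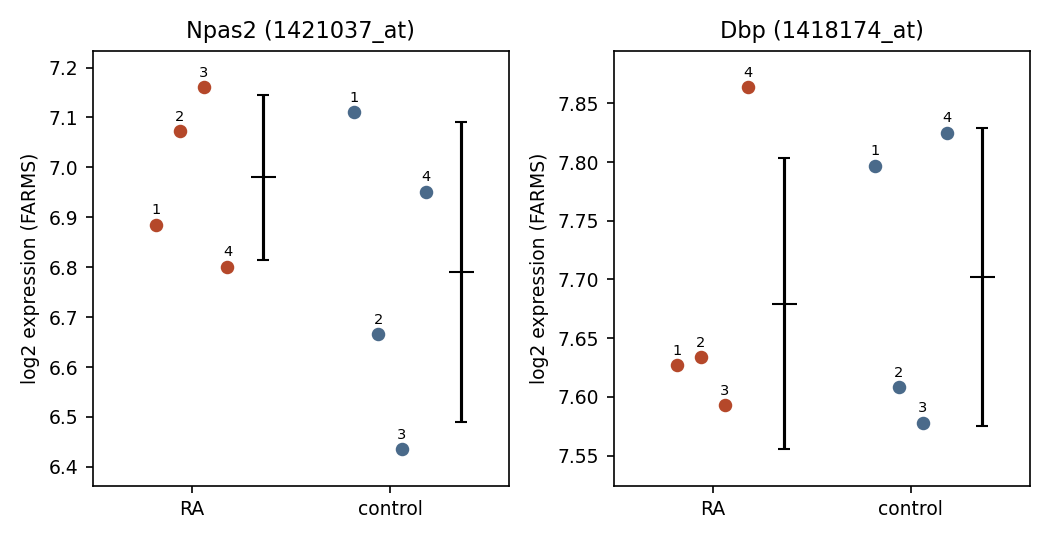
Log2 expression of Npas2 (1421037_at, left) and Dbp (1418174_at, right) in each array, with the array number above its point and the group mean with its SD beside the points (RA group first, n = 4 each), on axes that do not start at 0. The groups overlap for both genes, at 6.80 to 7.16 in the RA group and 6.43 to 7.11 in the control group for Npas2, and at 7.59 to 7.86 in the RA group and 7.58 to 7.82 in the control group for Dbp.

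Over the 25 clock probe sets, the rank product called 0 higher and 0 lower in the RA group, where it called 412 (0.915%) higher and 259 (0.575%) lower of all 45037. limma called 0 of the 25 and 0 of all probe sets (0%) at an adjusted p under 0.05. At an unadjusted p under 0.05, limma had 0 of the 25, of which 23 were unmeasured, against 4553 of all 45037, measured or not. The groups did not overlap for 0 of the 2 measured clock probe sets and for 210 of the 3758 measured ones (5.59%). The median log2 difference of the 2 was 0.0835, beside 0.0694 over all measured probe sets. With 4 arrays per group, the smallest p that the exact test allows is 0.0286. The study itself lists circadian rhythm and circadian regulation of gene expression among the gene ontology terms enriched in its differentially expressed genes. It does not name the genes behind those terms, so they could not be set beside these 25 probe sets.

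Whether the clock genes moved together could be asked of a single pair of members. Over the 8 arrays, Dbp and Npas2 had a Pearson's r of 0.24 (exact permutation p = 0.562, adjusted p = 0.882) and a Spearman's rho of 0.19 (exact permutation p = 0.665, adjusted p = 0.841), adjusted over the 19 pairs computed. Without RA array 4 and control array 4, the arrays farthest from the median of Dbp, r was 0.49, and for deviations from the group means it was 0.32. Both genes were high in control array 1 and low in control arrays 2 and 3, whereas RA array 4 was the highest for Dbp and the lowest of the RA arrays for Npas2.

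The other pairs set Npas2 and Dbp against 9 further clock genes with a measured probe set. Of the 19 pairs, 3 had an unadjusted p under 0.05 for r, and 0 passed after adjustment (lowest adjusted p = 0.297, exact permutation test). All 3 held Npas2. Its r with Csnk1a1, a kinase of PER proteins, was -0.76 (exact permutation p = 0.0292), with a rho of -0.71 (exact permutation p = 0.0576). Its r with Id2, which encodes an inhibitor of helix-loop-helix factors, was 0.71 (exact permutation p = 0.0464), with a rho of 0.52 (exact permutation p = 0.197). Its r with Rora, the receptor that activates Arntl, was 0.71 (exact permutation p = 0.0469), with a rho of 0.55 (exact permutation p = 0.171). These values depended in part on control arrays 2 and 3, those farthest from the median of Npas2. Without them r was -0.49 for Csnk1a1, 0.37 for Id2 and -0.16 for Rora, over a narrower range of Npas2. For deviations from the group means, r was -0.70 for Csnk1a1, 0.67 for Id2 and 0.67 for Rora. Dbp and Hlf, whose product binds the same D-box, had an r of 0.07 (exact permutation p = 0.874) and a rho of 0.24 (exact permutation p = 0.582).

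**Figure D3:**
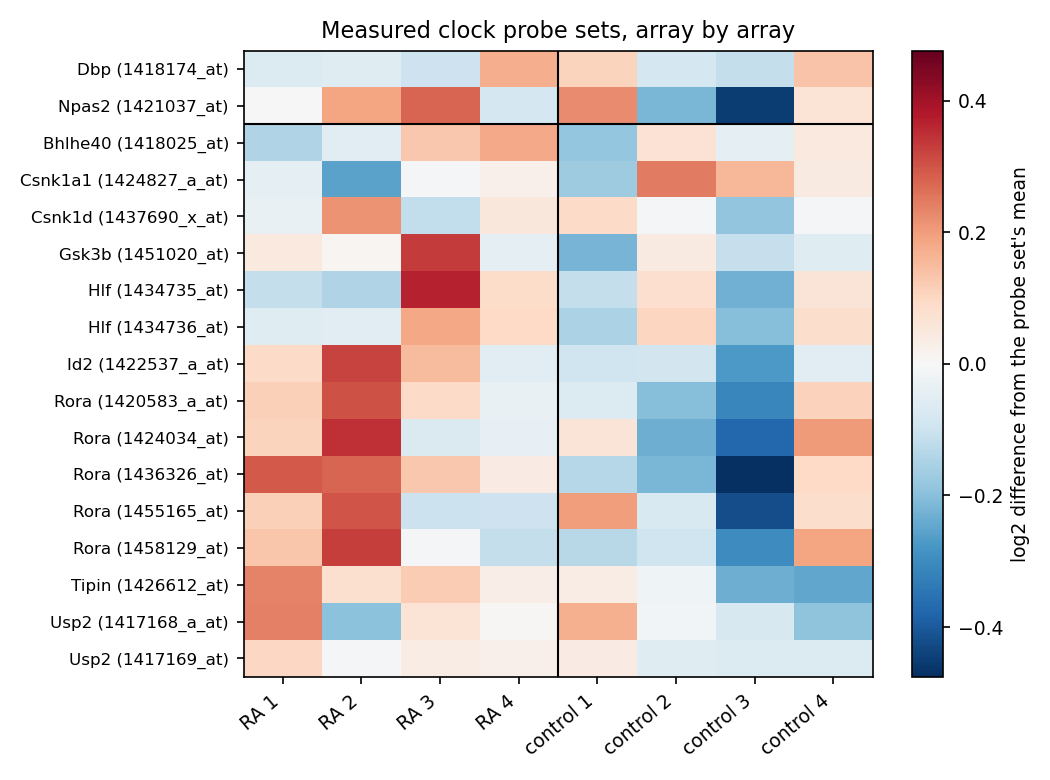
Log2 difference of each array from the mean of its probe set, for the measured probe sets of Dbp and Npas2 (above the line) and of 9 other clock genes (below it), with RA arrays 1 to 4 left of control arrays 1 to 4 and red for higher. Npas2 and the 5 probe sets of Rora are lowest in control array 3, while Dbp is highest in RA array 4.

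The genes whose pattern over the 8 arrays was most like each of the 2 were taken from 3006 probe sets of 2220 genes with an SD above 0.1. Those nearest to Npas2 were Cdh2 (r = 0.99), the gene of N-cadherin, then Dlg1, a synaptic scaffold gene, Trhr, the receptor of thyrotropin-releasing hormone, Sesn3 and Csmd3 (each r = 0.98). Their log2 differences of 0.11 to 0.18 did not pass the test either, with limma adjusted p of 0.698 (Cdh2) to 0.793 (Trhr). Those nearest to Dbp were Xbp1 (r = 0.89), a factor of the unfolded protein response, Wbp11 (0.86), Trim28 (0.84), a corepressor gene, Hddc3 (0.81) and Rasl10a (0.81), with differences of -0.08 (Rasl10a) to 0.11 (Hddc3). Each r was the highest of many over the same 8 arrays and is given as a description.

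Further genes of the clock and its regulation were counted from a list of 30, of which 28 had a probe set of their own, 75 in all. Measured were 15 probe sets (20%) of 9 genes, and the other 19 genes, Cry1 and Cry2 among them, were unmeasured, with SDs up to 0.000654. The rank product called 4 of the 75 probe sets higher, for Rora, Id2 and Tipin, and 0 lower, beside 0.915% and 0.575% of all probe sets. All 4 were measured probe sets, which made up 20% of this list but 8.34% of all probe sets. Taking only the probe set of highest mean per gene, the rank product called 1 gene higher (Tipin). limma called 0 (lowest adjusted p = 0.433), with 3 of the 15 at an unadjusted p under 0.05, beside 4553 of all 45037 probe sets, measured or not. Of the 15 differences, 5 of which belong to Rora, 14 were above 0, beside 73.1% of all measured probe sets, with a median of 0.106 beside 0.0694 over all measured probe sets.

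Rora had 5 of its 9 probe sets measured. In 1436326_at, Rora was at 7.176, 7.161, 7.011 and 6.923 on the log2 scale in RA arrays 1 to 4, against 6.748, 6.668, 6.409 and 6.981 in control arrays 1 to 4. Control array 3 was the lowest, and control array 4 lay above RA array 4, so that the groups overlapped. The difference was 0.37 with an SE of 0.127 (limma adjusted p = 0.435, exact permutation p = 0.0571), and the rank product called it higher (proportion of false positives 0.0184). It also called 1420583_a_at (0.24, SE 0.11, limma adjusted p = 0.528), and it did not call the other 3, at 0.11 to 0.17. The 5 correlated at an r of 0.72 to 0.94 with each other over the 8 arrays.

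Id2 (1422537_a_at) was at 8.469, 8.698, 8.530 and 8.326 in RA arrays 1 to 4, against 8.282, 8.291, 8.107 and 8.324 in control arrays 1 to 4. Every RA array lay above every control array, though RA array 4 exceeded control array 4 by little. This was the only 1 of the 15 probe sets without overlap, beside 5.59% of all measured probe sets. The difference was 0.25 with an SE of 0.0875 (limma adjusted p = 0.433, exact permutation p = 0.0286). The rank product called this probe set higher (proportion of false positives 0.032). The other probe sets of Id2, 1435176_a_at at a mean of 8.77 and 1453596_at at 5.42, were unmeasured.

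Tipin (1426612_at), which encodes the partner of TIMELESS at replication forks, was at 7.053, 6.894, 6.940 and 6.851 in RA arrays 1 to 4, against 6.854, 6.798, 6.584 and 6.569 in control arrays 1 to 4. Only RA array 4 and control array 1 overlapped. The difference was 0.23 with an SE of 0.0813 (limma adjusted p = 0.437, exact permutation p = 0.0571), and the rank product called it higher (proportion of false positives 0.0369). All 4 of these higher calls were lost when any 1 of the RA arrays was left out, and also among the 3758 measured probe sets alone, with the filter on low means and at a threshold of 0.01. The call of Tipin was also lost without control array 4, and that of Rora 1420583_a_at without control array 2 or 3. Of 6 thalamic markers 3 were called higher in the RA group, with list means of 7.09, 6.96, 6.51 and 6.80 in RA arrays 1 to 4, against 6.60, 6.42, 6.57 and 6.76 in control arrays 1 to 4, and of 8 meningeal markers 3 were called higher, beside 0.915% of all probe sets. The groups overlapped for each of these 6 markers, and among measured probe sets alone none of the 6 was called. Measured were 4 of the 6 thalamic and 6 of the 8 meningeal markers, beside 8.34% of all probe sets. Of 5 astrocyte markers 1 was also called higher, and of 4 endothelial markers 1. The groups did not overlap for either, beside 5.59% of all measured probe sets, and neither was called among measured probe sets alone. The part of such tissue and cells in the values of Rora, Id2 and Tipin was not tested.

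The remaining measured genes did not pass either test. Hlf differed by 0.10 and 0.08 in its 2 probe sets, Usp2, a deubiquitinase with a rhythmic transcript, by 0.06 and 0.07, and Bhlhe40, the relative of Bhlhe41, by 0.06. Of the kinases, Csnk1d differed by 0.06, Gsk3b by 0.17 and Csnk1a1 by -0.14, the only negative difference among the 15.

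**Figure D4:**
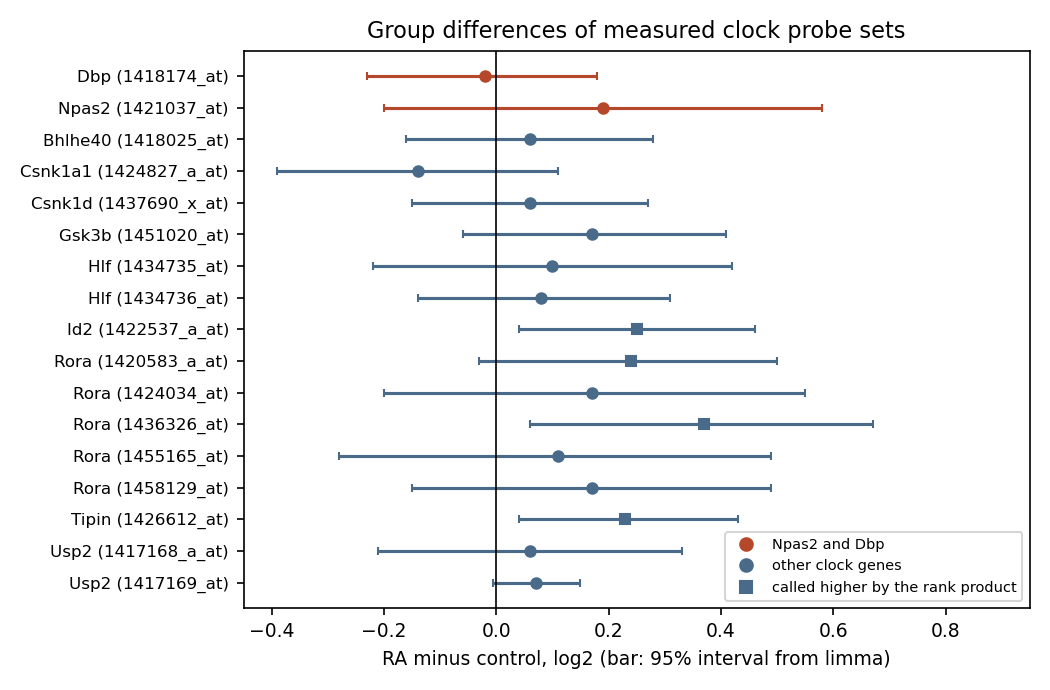
RA minus control difference in log2 units with its 95% interval from limma for each measured probe set of Npas2 and Dbp (red) and of the other clock genes (blue), with squares for those the rank product called higher. The intervals of Npas2 (-0.20 to 0.58) and Dbp (-0.23 to 0.18) hold 0, and those of Id2, Tipin and Rora 1436326_at do not.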

How the data were processed

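Hippocampal RNA was hybridised to Affymetrix mouse genome arrays, 4 for the RA group and 4 for the control group. The deposited values are log2 summaries that the authors made with FARMS in R, while the scaling between arrays was not found in the sources used here. They were used without further scaling. A test of 45037 probe sets left out 64 manufacturer's controls, and 34945 probe sets named 1 gene. The array number limits the precision.

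The rank product of the study's methods was computed for unpaired groups (16 differences, 100 permutations within arrays, proportion of false positives under 0.05) with Python 3.11.15 and numpy 2.4.6. limma 3.58.1 in R 4.3.3 gave differences, SEs and p-values with Benjamini-Hochberg adjustment over all probe sets. Exact permutation tests (70 assignments, 2-sided) and correlations used scipy 1.17.1. Both tests across probe sets were also run on simulated data. Most simulated probe sets were nearly constant, like the real ones. That run therefore does not show how large a difference in Npas2 or Dbp could be found.

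All 10 genes were named, with values per array for measured probe sets. Of the other clock genes, those measured were named. The 5 genes most like each measured member, Ttr, Fos and the marker lists completed the rule. Cry1, Cry2, Drd1, C1ql2, Calb1, Wfs1, Avp and Vip were named beyond it, after their values were seen. Members and lists were chosen with earlier results of these data known. Alternatives were quantile normalization, subtraction of medians, filters on means (at or above the median) and SD, leaving out each array, a replicate block, a threshold of 0.01, limma and the t-test. Comparisons among arrays with high or low Ttr and the pairs with other clock genes were added after seeing the data.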

Additional observations from a re-analysis of the deposited data

Results flagged for a closer look

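In 34 groups of 4 arrays checked for 1 array far from the rest, 2 stood out, and chance alone marks about 1 in 20. Dbp (1418174_at) was at 7.86 in RA array 4, where the other RA arrays lay at 7.59 to 7.63 (gap over range 0.851). Usp2 (1417169_at) was at 7.96 in control array 1, where the other control arrays lay at 7.86 to 7.87 (gap over range 0.949).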

How the results depend on the processing

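The rank product called no clock probe set under the alternatives except without control array 1, where Npas2 was called higher, so that the count ranged over 0 to 1 when single arrays were left out. The Npas2 difference ranged over 0.07 to 0.30 and that of Dbp over -0.08 to 0.02 without single arrays. Between the arrays with high Ttr, of which 1 was a control array, these differences were 0.51 and 0.12. limma called 0 clock probe sets except after quantile normalization (19) and after subtraction of array medians (23). All of these were unmeasured, since both scalings shift the nearly constant values, and over all probe sets limma then called 28543 and 41443, with median differences of -0.00256 and -0.00375. Of all probe sets, the 412 higher calls became 52 with a filter on low means, 4 among measured probe sets, 26 at a threshold of 0.01 and 18 to 966 without single arrays, and the 259 lower calls became 17 among measured probe sets, 155 at a threshold of 0.01 and 136 to 317 without single arrays. limma and the adjusted t-test gave 0 in each direction, and the unadjusted t-test gave 1976 higher and 2119 lower, with 0 of the 25 clock probe sets. Counting any probe set of a gene, 3 of the other clock genes were called higher in place of 1. Without single arrays the differences of Usp2 1417168_a_at (-0.01 to 0.13), Hlf 1434735_at (-0.01 to 0.16), Csnk1d 1437690_x_at (-0.01 to 0.11) and Rora 1455165_at (-0.02 to 0.19) changed sign. Arrays of the 2 groups share numbers, but deviations of same-numbered arrays correlated at -0.12, -0.33, 0.45 and -0.39, and 1 of the 4 RA arrays correlated best with its own number. With the replicate block there were 78 higher calls and 210 lower, the higher calls of Rora, Id2 and Tipin were lost (proportions of false positives 0.0531 to 0.114), Npas2 differed by 0.19 (limma adjusted p = 0.80) and Dbp by -0.02 (limma adjusted p = 0.892). Signal limits the reading, since 23 of the 25 clock probe sets carry no measured variation.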

Other observations

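Immediate early genes, which neurons induce within minutes of activity and with which Per1 shares its induction by activity, were called higher in the RA group in 8 of 10 cases by the rank product, beside 0.915% of all probe sets, and 0 were lower. The groups did not overlap for 5 of the 8, which the rank product had picked from the same values, beside 5.59% of all measured probe sets. limma called 0 of them after adjustment (7 at an unadjusted p under 0.05, beside 4553 of all 45037 probe sets). Of the 10 genes, 9 were measured, beside 8.34% of all probe sets. The rank product called 0 of the 8 among measured probe sets alone and 2 without RA array 1 or RA array 2. The mean of the list ranged over 7.04 to 7.50 in the RA group and 6.82 to 7.03 in the control group. Fos was at 8.229, 8.010, 7.465 and 7.672 in RA arrays 1 to 4, against 7.209, 7.328, 6.992 and 7.170 in control arrays 1 to 4, with no overlap and a difference of 0.67 (SE 0.177, limma adjusted p = 0.353). Per1 was unmeasured on these arrays, so its level could not be set beside them.

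Of the 5 genes listed as markers of the suprachiasmatic nucleus, the seat of the central clock, 2 were measured (Avp and Vip) and 0 were called. Whether tissue of that nucleus was in the samples was not tested. The mean of that list ranged over 5.95 to 6.21 in the RA group and 5.92 to 6.05 in the control group.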
